A study of Mus musculus with 24 samples.

Results

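The genes described here encode the mitochondrial respiratory chain and ATP synthase, followed across skeletal stem and progenitor cells sorted from the bones of young mice. The members were all protein-coding genes whose symbol starts with Ndufa, Ndufb, Ndufc, Ndufs, Ndufv, Uqcr, Atp5 or Cox4 to Cox8, together with Sdha, Sdhb, Sdhc and Sdhd, and without the assembly factors named Ndufaf. This rule reads only names and found 84 of 21948 genes. By complex, assigned from the symbol alone, these were 38 genes of complex I, 4 of complex II, 8 of complex III, 17 of complex IV and 17 of complex V. Of the 84 members, 82 passed the filter on low values (FPKM of at least 1 in 4 libraries) and were tested among 11767 genes. The remaining members, Cox6a2 and Cox7b2, did not reach it. FPKM are fragments per kilobase of transcript and per fixed number of mapped fragments, so levels of different genes can be compared.

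Complexes I to IV pass electrons from NADH and succinate to oxygen, and complexes I, III and IV pump protons across the inner mitochondrial membrane. Complex V, the ATP synthase, uses the proton gradient to make ATP. Complex II is also the succinate dehydrogenase of the citric acid cycle. The core subunits carry out catalysis, while the many small accessory subunits stabilise the complexes. Several subunits of complex IV have isoforms that are used in particular tissues or at low oxygen. Growth plate cartilage has few blood vessels, and its cells are known to rely strongly on glycolysis.

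All 24 libraries came from male mice labelled as wild type on postnatal day 10. Cells from the spine or from femur and tibia were sorted as negative for CD45, Ter119 and CD31 (blood and endothelial markers), Thy1, 6C3 and CD105, and positive for CD200. They were then divided by embigin (EMB), a surface glycoprotein. Vertebral cells were also divided by GFP, which marked cells with a Zic1-Cre history, whereas all long bone cells were GFP-. This gave 6 groups of 4 libraries, namely EMB+ and EMB- cells from each of 3 sources: vertebral GFP+, vertebral GFP- and long bone. The site of the vertebral GFP+ cells thus cannot be told apart from their GFP state when they are set against long bone. The labels call the libraries biological replicates and do not say how many animals each holds.

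The summed FPKM of a library lay between 382364 and 568495, and the read depth behind the values is unknown. The titles of the 4 vertebral GFP- EMB+ libraries name them EMB- and GFP+, and so disagree with their cell type labels in both states. The labels were followed, and the Emb RNA given next bears on the EMB state alone. Emb, the gene of the sort marker, averaged 49.5 ± 4.70 FPKM (SD, n = 4) in those libraries, 49.996 ± 4.41 in GFP+ EMB+, 34.7 ± 4.58 in long bone EMB+ and at most 1.32 in any EMB- library. One library stood apart. Replicate 4 of long bone EMB- correlated with a library of its own group at only 0.925, whereas no pair within the other 5 groups fell below 0.978. The growth plate genes of the chondrocyte list (such as Col2a1 and Acan) averaged between 7.23% and 14.4% of all FPKM over the 6 groups.

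The members took between 1.68% and 3.50% of the summed FPKM of a library. Among vertebral GFP+ cells their share was 2.15 ± 0.168% when EMB+ and 1.81 ± 0.119% when EMB-. Among vertebral GFP- cells it was 2.34 ± 0.175% when EMB+ and 1.81 ± 0.0992% when EMB-. In long bone the share was 2.60 ± 0.144% in EMB+ and 2.53 ± 0.658% in EMB- cells. The wide spread of the last group came from its replicate 4, at 3.50%, while its other libraries stood at 2.35%, 2.26% and 2.02%. Summed by complex, complex V took 0.691 ± 0.0564% in vertebral GFP- EMB+ against 0.458 ± 0.0264% in EMB- cells, and complex III took 0.265 ± 0.0179% against 0.171 ± 0.0125%. Complex I took 0.828 ± 0.0533% against 0.782 ± 0.0392%, values that differ by about their spread. Ndufa4l2, counted in complex I by its symbol alone, was the single gene there that went strongly the other way. Without it, the share of complex I was 0.789 ± 0.0502% against 0.545 ± 0.0267%. Shares depend on the genes that fill the rest of a library. With the hemoglobin genes, Col2a1 and Sparc left out of the sum, the share of all members was 2.89 ± 0.145% in long bone EMB+ and 3.07 ± 0.827% in EMB- cells. Complex I then took 0.949 ± 0.058% in vertebral GFP- EMB+ against 1.02 ± 0.0593% in EMB- cells, and 0.890 ± 0.0645% against 0.956 ± 0.0732% in GFP+ cells, so both directions turned. Without Ndufa4l2 complex I kept both directions under this sum. It took 0.904 ± 0.0546% against 0.708 ± 0.0409% in GFP- and 0.850 ± 0.0590% against 0.736 ± 0.0452% in GFP+ cells. The vertebral shares of all members kept theirs, at 2.49 ± 0.194% against 2.29 ± 0.144% in GFP+ and 2.68 ± 0.193% against 2.36 ± 0.151% in GFP- cells.

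**Figure D1:**
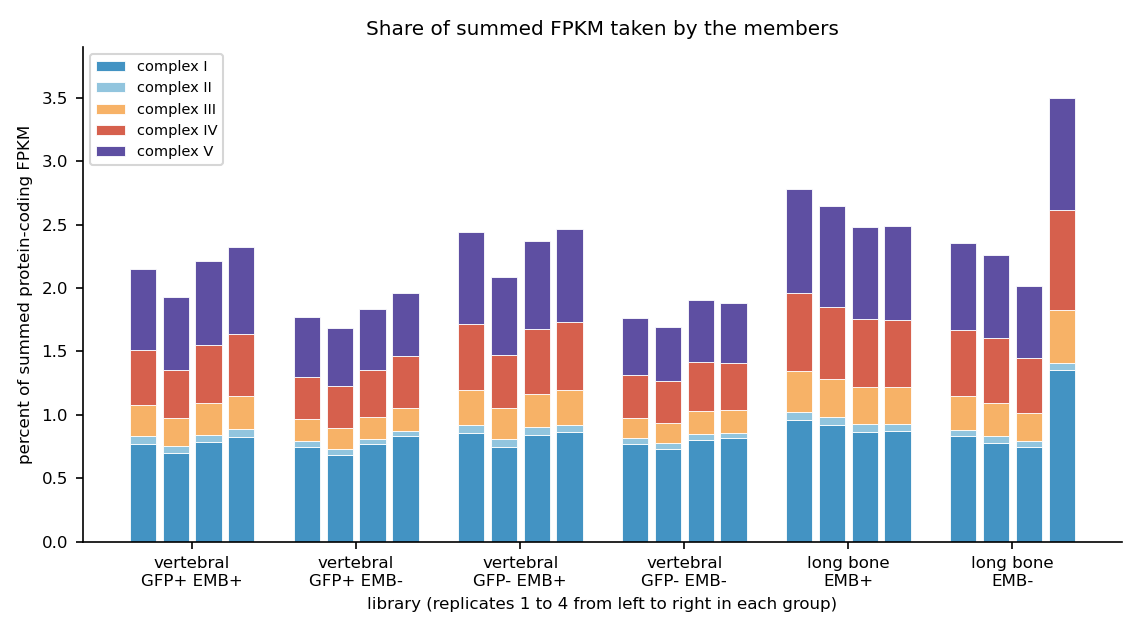
Percent of the summed protein-coding FPKM taken by the members of complexes I to V, stacked, in each of the 24 libraries (bars, replicates 1 to 4 from left to right in each group). The vertebral EMB- libraries lie between 1.68% and 1.96%, and replicate 4 of long bone EMB- reaches 3.50%.

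The order of the groups was much the same for most members. For 75 of the 82 tested members, both vertebral EMB- groups had the lowest mean FPKM of the 6. For 2 members, Ndufa4l2 and Cox4i2, these same groups had the highest. A long bone group had the highest mean for 67 members, EMB- for 45 of them and EMB+ for 22, and both long bone groups stood above all vertebral groups for 46. Replicate 4 of long bone EMB- set much of that order at the top: without it, EMB+ was the highest for 51 members and EMB- for 13, and both stood above the vertebral groups for only 16. The low place of both vertebral EMB- groups then held for 74. How many of all genes share these orders was not counted, so the orders are not shown to be particular to the members. In the tests given below, 42.1% and 41.7% of all genes were called higher in EMB+ than in EMB- vertebral cells (GFP+ and GFP-). Among EMB- cells, 40.4% and 40.2% were called lower in vertebral GFP+ and GFP- than in long bone cells. Between any pair of EMB+ groups at most 4 members passed the test described next, although vertebral GFP+ and long bone EMB+ libraries did not overlap for 41 members, all lower in vertebral GFP+ cells, where 16.1% of all genes lay apart as lower and 12% as higher.

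**Figure D2:**
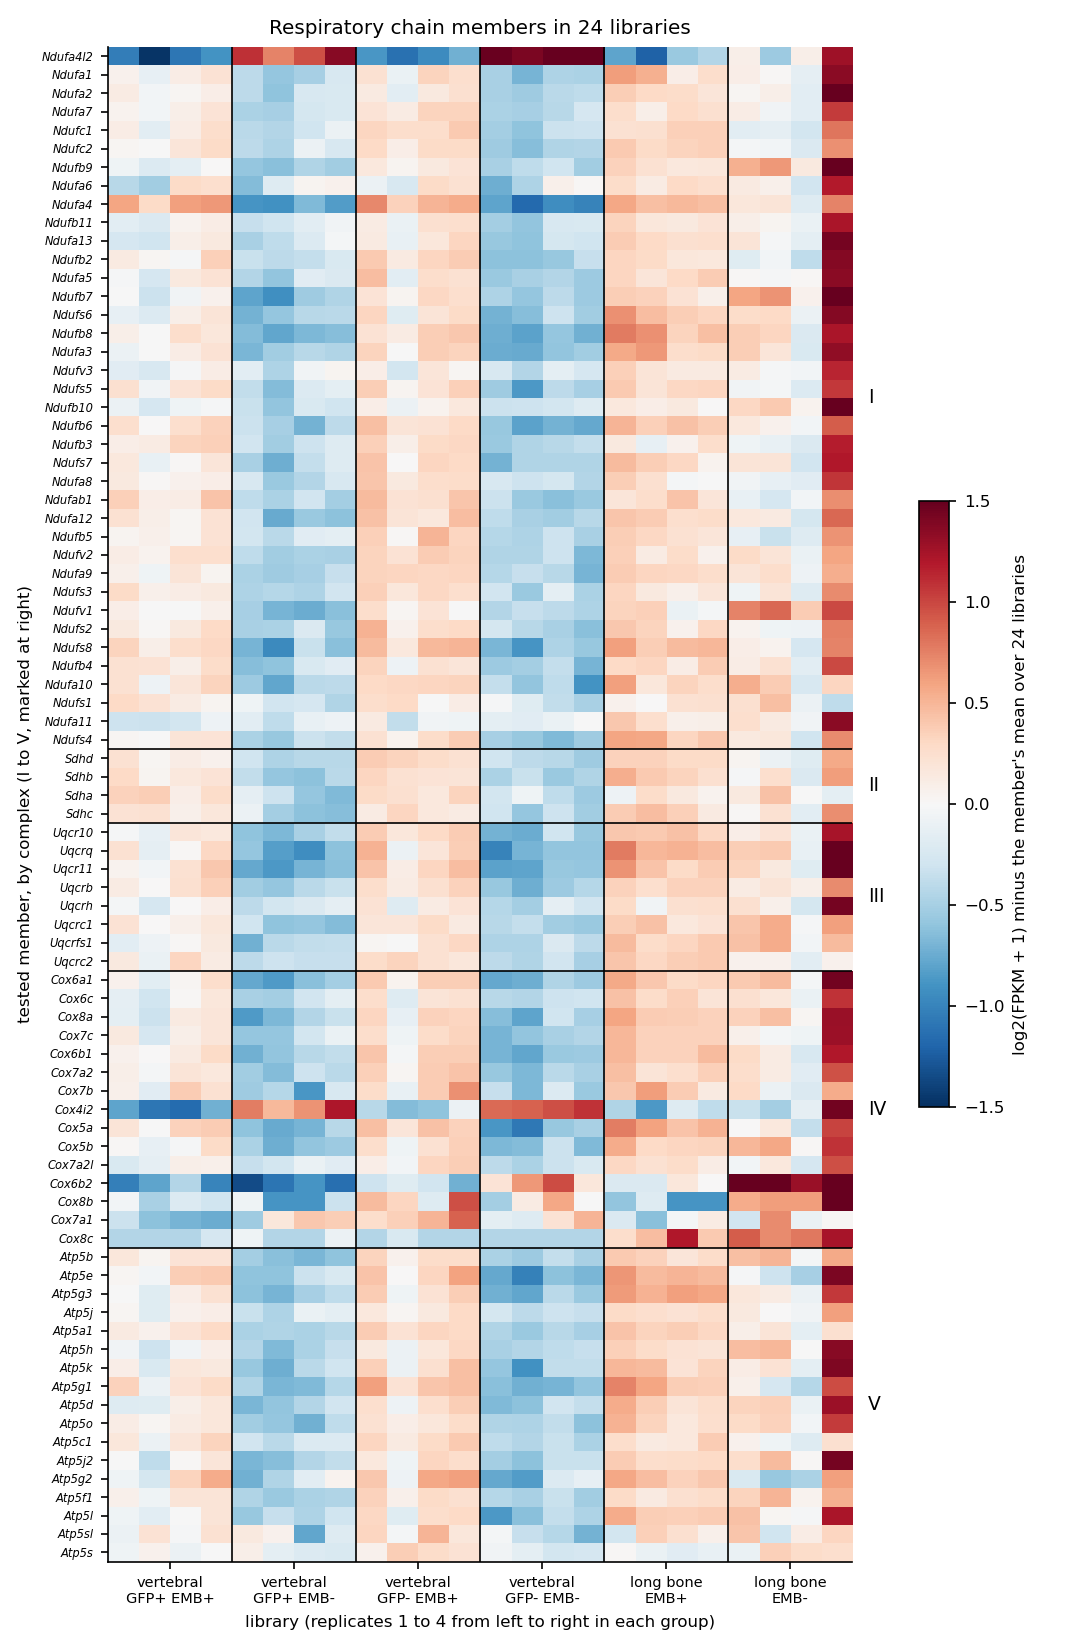
log2(FPKM + 1) of each tested member minus its mean over the 24 libraries, with members in rows by complex (ordered by mean level) and libraries in columns. Both vertebral EMB- groups are low for 75 of the 82 members, Ndufa4l2 and Cox4i2 are high there, and replicate 4 of long bone EMB- stands out. How many of all genes are low in both vertebral EMB- groups was not counted.

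EMB+ and EMB- cells were first compared in vertebral GFP+ cells. Of the 82 tested members, 54 were higher and 3 lower in EMB+ cells (limma on log2(FPKM + 1), Benjamini-Hochberg adjusted p under 0.05 over all genes). Over all genes tested, 42.1% were called higher and 7.85% lower, so the whole transcriptome leaned the same way. The median difference of the members was 0.51 on the log2(FPKM + 1) scale and that of all genes 0.32. All 4 complex II genes were called higher, as were 25 of 38 in complex I, 7 of 8 in complex III, 7 of 15 in complex IV and 11 of 17 in complex V. The lower calls were Ndufa4l2 in complex I and Cox4i2 and Cox7a1 in complex IV. In bulk RNA such as this, fewer cells of a type and less RNA per cell cannot be told apart. All 16 cell cycle markers (such as Mki67) were also higher in these EMB+ cells, summing to 212 ± 15.4 FPKM against 61.6 ± 3.22, and their part in the result was not tested.

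In vertebral GFP- cells, 70 members were higher and 3 lower in EMB+ cells, where 41.7% and 10.6% of all genes were called. The median difference was 0.71 for the members and 0.30 for all genes. All 17 complex V genes and all 4 of complex II were called higher, with 32 of 38 in complex I, 7 of 8 in complex III and 10 of 15 in complex IV. The lower calls were Ndufa4l2, Cox4i2 and Cox6b2. Here the cell cycle list summed to 221 ± 24.7 FPKM in EMB+ and 328 ± 55.0 in EMB- cells, with 0 markers higher and 5 lower, so it did not move the same way as in GFP+ cells. The leukocyte list summed to 549 to 3874 FPKM in the EMB+ libraries and 175.01 to 687 in the EMB- libraries. Red cell RNA moved most: all 10 erythroid markers were lower in EMB+ cells (median -4.71), summing to 395 ± 182 against 9982 ± 2170 FPKM. The part of these lists in the member result was not tested. The 2 vertebral comparisons share no library, though same-numbered libraries deviated together across the GFP states. All 54 members called higher in GFP+ cells were also called higher in GFP- cells, which is 100% of the first list and 77.1% of the second. Over all genes, 71.4% of those called higher in GFP+ cells were also called in GFP- cells, and 85.4% of all members tested were called higher in GFP- cells. With quantile normalization it was 18 of 21 members (85.7%, against 68.3% over all genes).

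The lean of all genes depends on how libraries are put on 1 scale. Median-ratio scaling, which sets each library by the typical ratio of its moderately expressed genes, moved the median of all genes from 0.32 to 0.01 in vertebral GFP+ and from 0.30 to -0.03 in GFP- cells. The member medians then became 0.14 and 0.30. Under it, 4 members (Atp5a1, Atp5b, Ndufa4 and Ndufs8) remained higher in GFP+ and 31 in GFP- cells, against 12.9% and 15.3% of all genes. With quantile normalization 21 and 37 members were higher, against 14.7% and 19.9% of all genes. As shares of the 82 members these are 4.88% and 37.8% with median-ratio scaling and 25.6% and 45.1% with quantile normalization, so the GFP+ share was below the background in the former. The same 3 members stayed lower in each comparison under both scalings. Relative to the median of all genes, the members thus stood 0.20 higher in GFP+ cells as deposited and 0.13 higher after median-ratio scaling. In GFP- cells the figures were 0.40 and 0.33. Within single libraries, the median member lay 3.26 to 3.70 above the median gene in GFP+ EMB+ and 3.15 to 3.43 in EMB- libraries, which overlap. The ranges were 3.48 to 3.83 and 3.09 to 3.28 in GFP- cells, without overlap.

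**Figure D3:**
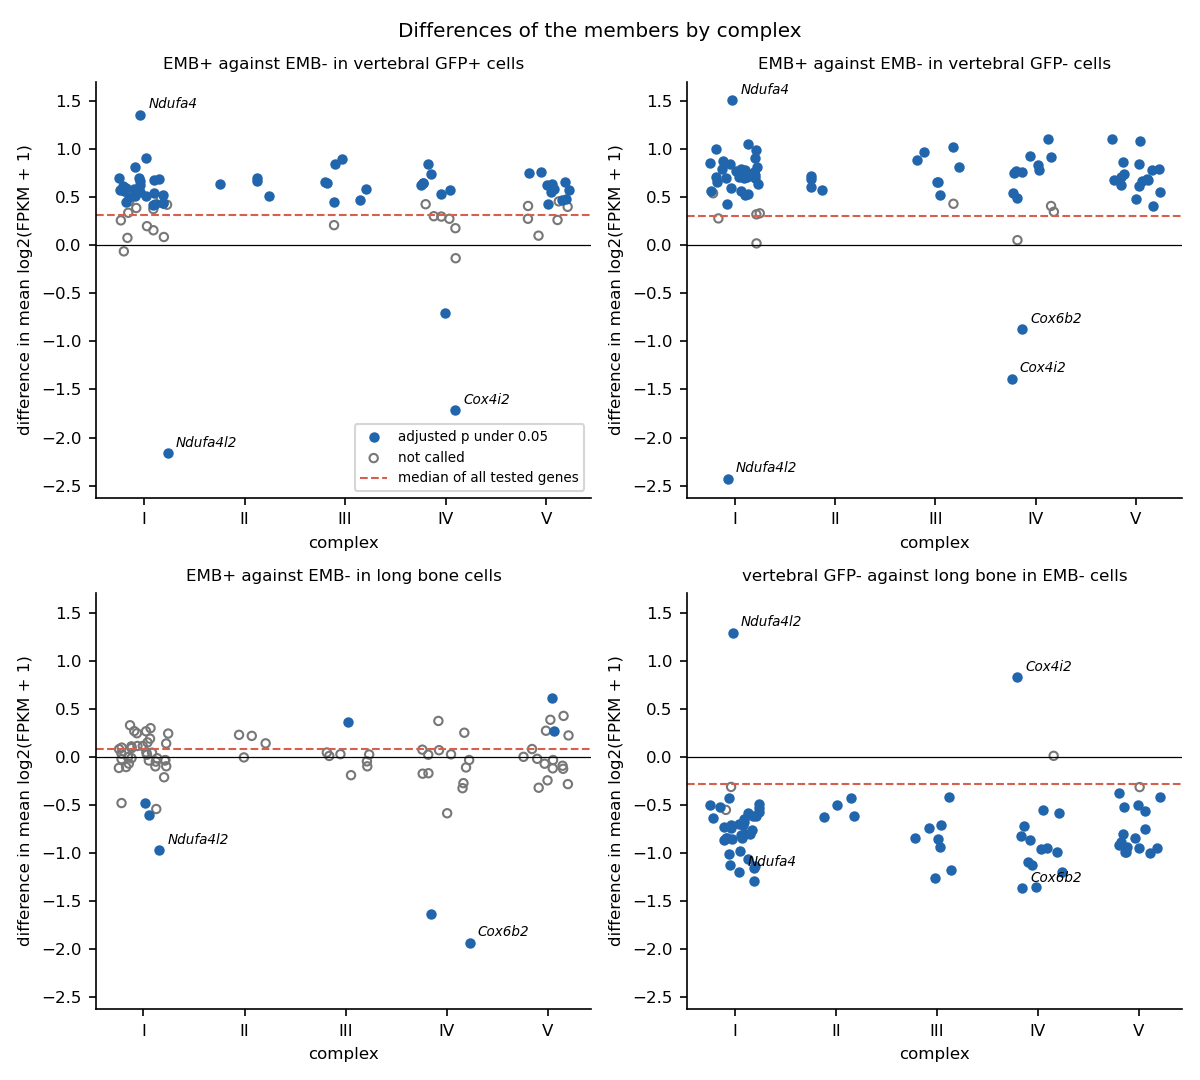
Difference in mean log2(FPKM + 1) of each tested member (points) by complex in 4 comparisons, filled blue where the adjusted p was under 0.05 and open where not, with the median of all genes tested as a dashed line. Most members lie above that line in both vertebral EMB comparisons, around it in long bone, and below it where vertebral GFP- EMB- cells are set against long bone EMB- cells.

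Among genes named for complex I, the NADH dehydrogenase, Ndufa4 rose furthest. It encodes an accessory protein first assigned to complex I and later to complex IV. It was at 174.7, 142, 178 and 182 FPKM in the vertebral GFP+ EMB+ libraries and at 62.1, 61.2, 73.1 and 64.6 in the EMB- libraries. In vertebral GFP- cells it was at 191.3, 148, 165.9 and 171.4 in EMB+ and at 66.6, 51.0, 60.4 and 57.5 in EMB- libraries. The groups did not overlap in either case. The differences were 1.36 ± 0.14 (SE, adjusted p = 3.34e-08) and 1.51 ± 0.14 (adjusted p = 4.03e-09, limma), and both calls held under both scalings. Ndufs8, a core subunit with iron-sulfur clusters, averaged 41.2 ± 3.13 against 21.8 ± 4.10 FPKM in GFP+ cells and 46.3 ± 5.15 against 21.8 ± 2.78 in GFP- cells. Its difference was 0.90 ± 0.16 in the former and 1.06 ± 0.16 in the latter (limma adjusted p = 4.84e-05 and 5.02e-06).

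Other core subunits moved less. Ndufv1, which binds NADH, averaged 38.3 ± 1.48 against 23.6 ± 1.88 FPKM in GFP+ cells (difference 0.68 ± 0.12, adjusted p = 6.6e-05) and 40.7 ± 3.83 against 27.8 ± 1.03 in GFP- cells (0.53 ± 0.12). Ndufs1, the largest iron-sulfur subunit, was higher by 0.43 ± 0.14 in both (adjusted p = 0.0152 and 0.0151). That call was lost without replicate 4 of the EMB- group in either comparison (adjusted p = 0.0549 and 0.0606). Under median-ratio scaling neither gene passed the test in either comparison.

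In complex II, the flavoprotein gene Sdha was at 58.0, 59.0, 48.6 and 55.1 FPKM in vertebral GFP+ EMB+ and at 41.2, 36.3, 30.02 and 28.3 in EMB- libraries, without overlap. Sdhb, its iron-sulfur partner, averaged 76.8 ± 5.56 against 48.0 ± 4.13 FPKM. The differences were 0.70 ± 0.13 and 0.67 ± 0.13 (limma adjusted p = 0.000129 and 0.000152). In GFP- cells they were 0.57 ± 0.13 and 0.69 ± 0.13. In complex III, which hands electrons from ubiquinol to cytochrome c, the core gene Uqcrc1 averaged 94.7 ± 6.27 against 60.03 ± 7.08 FPKM in GFP+ and 100 ± 4.31 against 62.9 ± 4.10 in GFP- cells. Its differences were 0.65 ± 0.12 and 0.66 ± 0.12. The small subunit gene Uqcrq rose further, by 0.85 ± 0.22 and 0.97 ± 0.22. None of these 4 genes held its call in GFP+ cells under median-ratio scaling. In GFP- cells Sdha (adjusted p = 0.380), Sdhb (0.0521) and Uqcrc1 (0.0761) lost theirs too, and Sdha (0.251) and Uqcrc1 (0.0589) also did so with quantile normalization.

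In complex IV, cytochrome c oxidase, 7 of 9 common subunit genes were higher in EMB+ cells of vertebral GFP+ origin (all but Cox6c and Cox7c) and all 9 in GFP- cells. Under median-ratio scaling 0 of the 9 remained called in GFP+ and 5 in GFP- cells. Cox5a was at 99.9, 82.4, 99.2 and 93.0 FPKM in vertebral GFP- EMB+ and at 39.3, 34.0, 48.8 and 51.4 in EMB- libraries. These groups were far apart, with a difference of 1.11 ± 0.19 (limma adjusted p = 3.16e-05), against 0.84 ± 0.19 in GFP+ cells (adjusted p = 0.000765), where it was 0.46 under median-ratio scaling (adjusted p = 0.0539). Cox6a1, the most abundant complex IV gene, averaged 524 ± 55.8 against 276 ± 29.6 FPKM in GFP- cells and 442 ± 53.1 against 264 ± 27.5 in GFP+ cells. In complex V, the catalytic subunit gene Atp5b was the most abundant member, at 590, 537, 602 and 603 FPKM in vertebral GFP+ EMB+ and 368, 337, 326 and 343 in EMB- libraries. It was higher by 0.76 ± 0.12 in GFP+ cells (adjusted p = 1.05e-05) and 0.71 ± 0.12 in GFP- cells, and both calls held under both scalings.

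The proton-carrying c subunit of ATP synthase is made from 3 genes that encode the same mature protein. Atp5g1, the copy known to follow respiratory demand, averaged 168.6 ± 21.4 against 99.6 ± 9.40 FPKM in vertebral GFP+ and 198 ± 22.7 against 92.6 ± 3.70 in vertebral GFP- cells. Atp5g3 averaged 209 ± 25.1 against 139 ± 13.4 and 239 ± 33.3 against 133 ± 15.8. In GFP+ cells the calls of Atp5g1 and Atp5g3 were lost under median-ratio scaling (differences 0.36 and 0.19, limma adjusted p = 0.129 and 0.396), and that of Atp5g3 also with quantile normalization (0.23, adjusted p = 0.0804). The mix of the 3 copies changed little. Atp5g1 gave 36.4 ± 2.14% of their sum in vertebral GFP- EMB+ and 32.7 ± 3.37% in EMB- cells, and Atp5g3 gave 43.7 ± 0.933% and 46.4 ± 1.76%.

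Promoters were examined because so many members moved together. RefSeq windows from 250 bases before to 50 bases after the start (GRCm38.p6) were matched by symbol for 67 of the 84 members. On either strand, CGCATGCGC, the core of the NRF1 site, occurred in 8 of them (11.9%), against 1.81% of all 27025 windows of the same length. AAGATGGC, the core of the YY1 site, also occurred in 8 (11.9% against 2.88%), and CCGGAAGT, a site of ETS factors, in 5 (7.46% against 4.00%). At least 1 of the 3 motifs was in 20 windows (29.9% against 8.27%). Among the 17491 windows of protein-coding genes, the shares were 2.41% for NRF1, 3.23% for YY1, 5.29% for ETS and 10.3% for any. NRF1, YY1 and the ETS factor GABP are known regulators of respiratory chain genes. A match of letters is not a measured site, and the member windows had a median GC content of 57.3% against 52.7% for all windows. The 3 windows below were chosen, with motif and values known, to show 1 promoter for each kind of match from complexes III, IV and I. They are on the minus strand, read 5′ to 3′ in the direction of the gene, with the motifs in capitals. The Uqcr11 window at chr10:80406772-80407071 holds the ETS and NRF1 motifs, that of Cox6a1 at chr5:115348909-115349208 holds NRF1 matches on both strands, which overlap, and that of Ndufb8 at chr19:44555393-44555692 holds the YY1 motif.
Uqcr11: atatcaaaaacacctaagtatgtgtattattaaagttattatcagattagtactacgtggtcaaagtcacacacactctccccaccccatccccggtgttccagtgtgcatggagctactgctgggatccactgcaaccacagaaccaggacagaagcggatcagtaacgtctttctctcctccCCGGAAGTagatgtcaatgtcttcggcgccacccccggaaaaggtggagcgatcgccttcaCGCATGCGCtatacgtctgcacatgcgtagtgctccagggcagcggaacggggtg
Cox6a1: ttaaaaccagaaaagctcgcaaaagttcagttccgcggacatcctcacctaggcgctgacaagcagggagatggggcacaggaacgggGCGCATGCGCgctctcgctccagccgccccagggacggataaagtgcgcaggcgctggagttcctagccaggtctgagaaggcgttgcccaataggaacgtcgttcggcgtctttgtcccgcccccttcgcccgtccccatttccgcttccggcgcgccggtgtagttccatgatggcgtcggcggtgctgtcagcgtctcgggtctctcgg
Ndufb8: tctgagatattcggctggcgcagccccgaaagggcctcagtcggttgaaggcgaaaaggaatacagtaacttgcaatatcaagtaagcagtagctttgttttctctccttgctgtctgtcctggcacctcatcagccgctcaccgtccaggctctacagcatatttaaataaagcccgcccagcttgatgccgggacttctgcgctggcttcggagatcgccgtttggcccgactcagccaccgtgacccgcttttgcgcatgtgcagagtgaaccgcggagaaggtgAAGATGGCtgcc

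All of these were among the members higher in EMB+ vertebral cells. Uqcr11, a small complex III subunit, averaged 167.4 ± 23.5 against 88.8 ± 6.03 FPKM in GFP+ and 188.1 ± 19.6 against 92.3 ± 8.21 in GFP- cells (differences 0.90 ± 0.23 and 1.02 ± 0.23). Ndufb8, an accessory subunit of complex I often used to track its assembly, averaged 101 ± 7.997 against 56.9 ± 2.47 and 112 ± 10.2 against 56.0 ± 3.73 FPKM (0.81 ± 0.18 and 0.99 ± 0.18). Cox6a1 differed by 0.74 ± 0.19 and 0.92 ± 0.19 (limma adjusted p = 0.00302 and 0.000353). The 3 calls in GFP- cells held under both scalings and those in GFP+ cells did not hold under median-ratio scaling.

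A pair of isoform genes went against the other members. Ndufa4l2 (chromosome 10, 127514939 to 127517152, GRCm38), the paralogue of Ndufa4 known to be induced by the hypoxia factor HIF-1, was at 160, 118, 154 and 177 FPKM in vertebral GFP+ EMB+ libraries and at 705, 552, 641 and 852 in EMB- libraries. In vertebral GFP- cells it was at 180, 151, 171.1 and 199 in EMB+ and at 921, 875, 948 and 1029 in EMB- libraries. Every EMB- library lay more than 3 times above every EMB+ library of its kind. The differences were -2.16 ± 0.24 (adjusted p = 9.03e-08) and -2.43 ± 0.24 (adjusted p = 9.43e-09, limma). In long bone the values overlapped, at 189.2, 142, 223 and 243 in EMB+ and 351, 225, 348 and 793 in EMB- libraries. That difference was -0.97 ± 0.24 (adjusted p = 0.00278). It was -0.63 ± 0.17 (adjusted p = 0.00599) without replicate 4, and the call was lost when only these 8 libraries were fitted (adjusted p = 0.072).

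The balance between Ndufa4l2 and Ndufa4 shifted accordingly. The ratio of their FPKM averaged 0.896 ± 0.0598 in vertebral GFP+ EMB+ and 10.6 ± 2.09 in EMB- cells, and 1.04 ± 0.0907 and 16.1 ± 1.79 in vertebral GFP- EMB+ and EMB- cells. In long bone it was 1.22 ± 0.284 in EMB+ and 2.97 ± 1.03 in EMB- cells. The EMB+ groups were thus near equal levels of both genes in vertebrae, and only the vertebral EMB- groups had ratios of about 10 or more. Ndufa4 lies on chromosome 6, 11900292 to 11907497, so the pair is not a neighbouring one.

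Cox4i2 (chromosome 2, 152754173 to 152765037) encodes the subunit 4 isoform known from lung and from cells at low oxygen. It was at 47.5, 38.4, 36.7 and 49.9 FPKM in vertebral GFP+ EMB+ and at 141, 116, 133 and 192.5 in EMB- libraries. In GFP- cells it was at 61.9, 52.2, 53.9 and 77.6 in EMB+ and at 150, 154, 162.2 and 176.3 in EMB- libraries. The groups did not overlap, with differences of -1.72 ± 0.27 (adjusted p = 1.27e-05) and -1.39 ± 0.27 (adjusted p = 0.00014, limma). In long bone EMB- cells it was at 65.5, 57.8 and 75.2 FPKM in 3 libraries and at 227 in replicate 4, against 60.2, 45.0, 72.5 and 63.3 in EMB+ cells. The long bone difference did not pass the test (-0.59 ± 0.27, adjusted p = 0.0949) and was -0.15 ± 0.16 without that replicate. Cox4i1, the common isoform, was not analysed here. Set against the mean of 9 common complex IV genes, Cox4i2 stood at 0.213 ± 0.0278 in vertebral GFP+ EMB+ and 1.05 ± 0.149 in EMB- cells, and at 0.262 ± 0.0374 and 1.20 ± 0.0782 in GFP- cells.

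**Figure D4:**
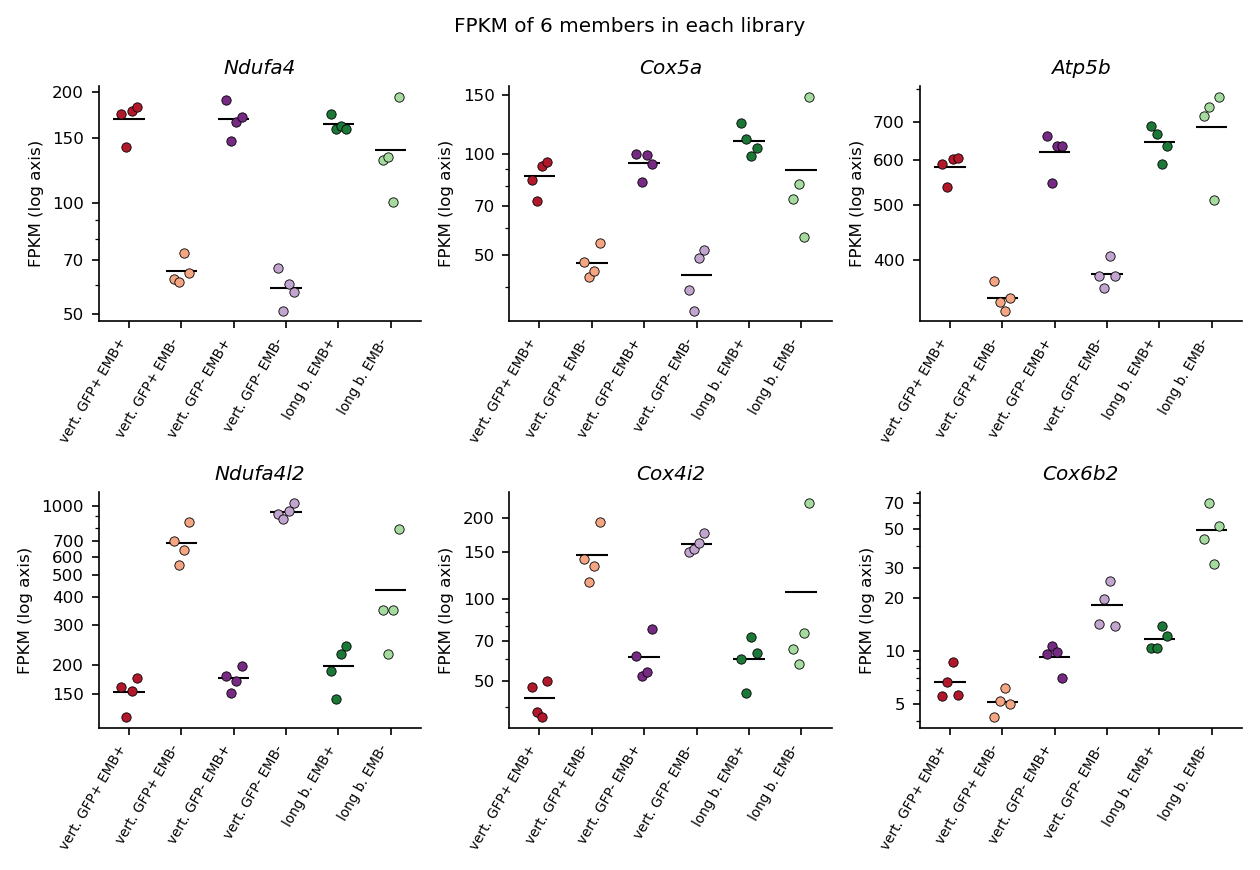
FPKM on a log axis of 3 members that were higher in EMB+ vertebral cells (top) and 3 isoform genes (bottom) in each library (points), with group means as lines; "vert." is vertebral and "long b." long bone. Ndufa4l2 lies between 552 and 1029 in the vertebral EMB- libraries and between 118 and 199 in the vertebral EMB+ libraries, while Ndufa4 lies between 51.0 and 73.1 and between 142 and 191.3.

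Cox6b2, the testis-type partner of Cox6b1, followed another pattern. It was at 43.4, 69.9, 31.5 and 52.1 FPKM in long bone EMB- and at 14.3, 19.8, 24.98 and 13.9 in vertebral GFP- EMB- libraries. Its mean was 11.7 ± 1.67 in EMB+ cells of long bone and 9.32 ± 1.58 in those of vertebral GFP- origin. Among vertebral GFP+ cells it was 6.63 ± 1.48 when EMB+ and 5.15 ± 0.807 when EMB-. It was lower in EMB+ cells of long bone (-1.93 ± 0.20, limma adjusted p = 2.81e-08) and of vertebral GFP- origin (-0.87 ± 0.20, adjusted p = 0.000839). Cox6b1 exceeded it everywhere, with Cox6b2 at 0.245 ± 0.108 of its level in long bone EMB- cells. The groups in which Cox6b2 was high are also those with red cell RNA. The summed FPKM of 10 erythroid markers (such as Hba-a1 and Alas2) ranged from 20836 to 43942 in long bone EMB- and from 7510.45 to 12710.5 in vertebral GFP- EMB- libraries, against 127 to 989 in all others, and no marker was at 0 throughout a group. All 10 were lower in EMB+ cells in the 2 comparisons named. The part of this RNA in the Cox6b2 difference was not tested.

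Isoforms of striated muscle were scarce. Cox7a1 averaged 0.315 to 1.84 FPKM over the groups, Cox8b 0.208 to 3.19 and Cox6a2 0.0479 to 0.734, while their common partners Cox7a2, Cox8a and Cox6a1 averaged 110 to 204, 177 to 401 and 264 to 681. Cox8b was lower in EMB+ cells of long bone (0.222, 0.609, 0 and 0 FPKM against 1.72, 1.85, 1.85 and 7.37, difference -1.64 ± 0.30, adjusted p = 0.000133). The skeletal muscle marker list summed to 376 to 852 FPKM in long bone EMB- libraries and to 33.9 to 109 in all others, and its part in the Cox8b difference was not tested. Cox7a1 was called lower in vertebral GFP+ EMB+ cells (-0.70 ± 0.23, adjusted p = 0.0131), with overlapping groups at 0.576, 0.286, 0.220 and 0.180 against 0.368, 1.23, 1.61 and 1.56 FPKM. The testis-type genes Cox8c and Cox7b2 averaged at most 1.58 and 0.358 FPKM.

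Some genes that the name rule takes in are not classed as core subunits. Cox7a2l, which helps to join complexes III and IV, averaged 39.2 ± 4.34 against 34.5 ± 2.65 FPKM in vertebral GFP+ EMB+ and EMB- cells and did not pass the test there, but was higher in vertebral GFP- EMB+ cells (0.54 ± 0.17, limma adjusted p = 0.00886). Atp5s and Atp5sl, assembly-related proteins named for their likeness to ATP synthase, averaged 2.61 to 3.81 and 4.19 to 6.97 FPKM. Without these 3 and Ndufa4l2, the vertebral calls were 54 higher and 2 lower in GFP+, and 67 higher and 2 lower in GFP- cells.

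In long bone, few members were called between EMB+ and EMB- cells, and RNA of other kinds moved strongly. Erythroid markers summed to 427 ± 124 FPKM in EMB+ and 34803 ± 10436 in EMB- cells (7.34% of all FPKM), cell cycle markers to 141 ± 4.98 and 876 ± 418, and skeletal muscle markers to 61.4 ± 3.20 and 549.6 ± 212. Their part in the member values was not tested. As deposited, 3 were higher (Atp5g2, Uqcrc2 and Atp5a1) and 5 lower (Cox6b2, Cox8b, Ndufa4l2, Ndufv1 and Ndufb9, the last chosen after its value was seen), where 17.5% of all genes were higher and 16% lower. Uqcrc2, a core gene of complex III, was at 47.6, 44.0, 45.7 and 46.8 FPKM in EMB+ and 37.0, 37.0, 31.6 and 37.0 in EMB- libraries (0.36 ± 0.09, adjusted p = 0.00314). Ndufv1 went the opposite way to vertebrae, at 47.3, 48.0, 34.8 and 36.3 in EMB+ and 63.1, 68.6, 48.7 and 74.8 in EMB- libraries (-0.60 ± 0.12, adjusted p = 0.000362), without overlap. The Atp5g2 call was lost without any 1 of 7 of the 8 libraries, all but replicate 4 of EMB- (adjusted p from 0.058 to 0.142). The Atp5a1 call was lost without replicate 1 or 3 of either group (0.0531 to 0.112), and that of Uqcrc2 with only these 8 libraries in the fit (0.0791). That of Ndufb9 was lost without replicate 3 or 4 of EMB+ (0.0635 and 0.0614), without replicate 4 of EMB- (0.0885) and with only these 8 libraries (0.228). The member median was 0.00, against 0.08 for all genes. Under median-ratio scaling the members leaned lower, with 1 call higher and 10 lower where 12.2% and 18.3% of all genes were called. Under quantile normalization 11 were higher and 8 lower (22.8% and 15.4% of all genes).

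Replicate 4 of long bone EMB- decided this comparison. Without it, 33 members were higher and 4 lower in EMB+ cells, where 21.3% of all genes were higher and 17.2% lower, and the member median was 0.26 against 0.08 for all genes. Atp5g2 (0.87 ± 0.21), Atp5e (0.81 ± 0.14), Atp5g1 (0.72 ± 0.12) and Cox5a (0.64 ± 0.14) then led the higher calls, and Ndufb9 was no longer called. In that library 74 of the 82 members lay above the other 3 libraries of the group, as did 35.7% of all genes, and the median member was at 2.01 times their mean. Its values went with transcript length. Over all genes, the median ratio of replicate 4 to the mean of the other 3 was 1.54 in the shortest of 4 equal classes of annotated transcript length and 0.645 in the longest. Of the 82 members, 72 fall in the shortest class, where their median ratio was 2.04. Ndufs1 (13.3 against 20.7 ± 4.03 FPKM, n = 3) and Sdha (40.9 against 52.5 ± 8.66) were not raised, and the citric acid cycle list stood at 0.860 times the others. Atp5g1, the only member in the longest class by its longest annotated transcript, was raised, to 2.25 times the others. The part of length in the member values was not tested.

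In the vertebral EMB comparisons the median difference of all genes changed less with length. It was 0.29, 0.31, 0.34 and 0.33 from the shortest to the longest class in GFP+ cells. In GFP- cells it fell with length, from 0.42 through 0.31 and 0.28 to 0.23, so part of the member median there lies in a class that was itself higher. The members of the shortest class had medians of 0.50 in GFP+ and 0.70 in GFP- cells, against 0.29 and 0.42 for all genes of that class.

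The vertebral and long bone EMB differences were compared directly. The difference was larger in vertebral GFP- than in long bone cells for 49 members and smaller for 1, against 24.7% and 5.07% of all genes. It was larger by 1.24 ± 0.20 for Ndufa4 (adjusted p = 5.7e-05) and by 1.13 ± 0.17 for Ndufv1 (adjusted p = 2.44e-05), and Ndufa4l2 was the member on the other side (-1.46 ± 0.34, adjusted p = 0.00232, limma). Without replicate 4 of long bone EMB-, 48 were larger and 2 smaller (29.5% and 5.8% of all genes), Cox4i2 having joined Ndufa4l2 (-1.24 ± 0.22, adjusted p = 0.000115). With median-ratio scaling 14 were larger and 2 smaller (10.5% and 8.84% of all genes). Between vertebral GFP+ and GFP- cells, the EMB difference was called for 2 members, 1 in each direction, where 3.2% of all genes were larger in GFP+ and 1.67% smaller. These were Cox6b2 (1.17 ± 0.28, adjusted p = 0.0113) and Cox7a1 (-1.11 ± 0.32, adjusted p = 0.0438, a call lost in 11 of the 16 fits that left out a library). With the replicate number as a block, 22 members were called, 2 larger in GFP+ cells (Cox6b2 and Ndufa4l2) and 20 smaller, where 8.57% and 7.7% of all genes were called. Apart from Cox7a1 the smaller ones ranged from -0.47 for Atp5e to -0.22 for Ndufa7.

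Few members were called between GFP+ and GFP- vertebral cells without the block. In EMB+ cells 1 member was called, Cox7a1, at 0.576, 0.286, 0.220 and 0.180 FPKM in GFP+ and 1.36, 1.54, 1.82 and 2.64 in GFP- libraries (-1.10 ± 0.23, adjusted p = 0.00531), where 0.391% of all genes were higher and 1.71% lower. In EMB- cells 1 member was called, Cox6b2 (-1.62 ± 0.20, adjusted p = 1.65e-06), where 2.25% of all genes were higher and 6.22% lower. In that comparison all 10 erythroid and all 16 cell cycle markers were also lower in GFP+ cells. Same-numbered libraries of these groups deviated together, and in a fit that takes the replicate number as a block, 20 members of 81 were lower in GFP+ EMB+ cells and 0 higher, against 4.5% and 2.38% of all genes. Their differences were small apart from Cox7a1, from -0.49 for Cox4i2 and -0.44 for Cox6b2 to -0.18 for Ndufa7 (named here after its value was seen). In EMB- cells the block gave 6 higher (led by Atp5e, 0.33 ± 0.07) and 3 lower (Cox6b2, Ndufa4l2 at -0.47 ± 0.06 and Ndufv1 at -0.23 ± 0.07), where 6.96% and 11.9% of all genes were called.

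Between vertebral and long bone cells, few members were called when EMB+ and most when EMB-. Among EMB+ cells, 4 members were lower in vertebral GFP+ than in long bone cells (Atp5g3, Cox6b2, Cox8c and Uqcrfs1) and 0 higher, where 8.66% of all genes were higher and 12.9% lower. In vertebral GFP- EMB+ cells 2 members were higher (Cox7a1 and Cox8b) and 1 lower (Cox8c), where 8.49% were higher and 10.6% lower. The Cox7a1 call was lost without replicate 3 or 4 of vertebral GFP- EMB+ and without replicate 1 or 2 of long bone EMB+ (limma adjusted p from 0.0623 to 0.137). The Cox8b call was lost without replicate 4 of either group (0.0737 and 0.05005). Atp5g3 was at 202, 179, 217 and 238 FPKM in vertebral GFP+ EMB+ and 317, 291, 311 and 303 in long bone EMB+ libraries (-0.55 ± 0.17, adjusted p = 0.0209). Uqcrfs1, the Rieske iron-sulfur protein, was at 42.7, 45.0, 48.3 and 52.8 against 66.5, 58.1, 59.9 and 63.1 (-0.39 ± 0.12, adjusted p = 0.0231). The groups did not overlap for either gene, yet both calls were lost without replicate 2 of vertebral GFP+ EMB+ (adjusted p = 0.0811 and 0.0641) and without replicate 1 of long bone EMB+ (0.0507 and 0.0709). That of Uqcrfs1 was also lost without replicate 1 of vertebral GFP+ EMB+ (0.0782). With only the groups compared in the fit, 30 of 79 members were lower in the first of these comparisons and 0 higher, against 15.4% and 11.8% of all genes, so the count there depends strongly on which groups share the fit.

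Under median-ratio scaling 45 and 55 members were lower in the 2 EMB- comparisons that follow, against 23.8% and 22.6% of all genes. Among EMB- cells as deposited, 71 members were lower and 2 were higher in cells of vertebral GFP+ origin than of long bone, and 76 were lower and 2 higher in vertebral GFP- cells, where 40.4% and 40.2% of all genes were lower and 7.4% and 8.05% higher. Both comparisons use the same long bone libraries, so they are not separate evidence. The member medians were -0.71 and -0.80, and the medians of all genes were -0.27 and -0.28. Most members lie in the shortest class of transcript length. In that class the medians were -0.75 and -0.82 for the members and -0.39 and -0.43 for all genes. With 1 library left out at a time, the member median minus that of all genes ranged from -0.55 to -0.23 in GFP+ cells. In GFP- cells it ranged from -0.64 to -0.25. The part of length in this result was not tested. Cox6a1 was at 248, 256, 311 and 290 FPKM in vertebral GFP- EMB- and at 556, 591, 416 and 1162 in long bone EMB- libraries (-1.19 ± 0.19, adjusted p = 1.97e-05). Ndufa4 differed by -1.20 ± 0.14 (adjusted p = 2.48e-07) and Ndufv1 by -1.15 ± 0.12 (adjusted p = 3.69e-08), without overlap. The 2 higher members were Ndufa4l2 (0.82 ± 0.24 in GFP+ and 1.29 ± 0.24 in GFP- cells) and Cox4i2 (0.67 ± 0.27 and 0.83 ± 0.27). The Cox4i2 calls were lost when only the groups compared were fitted (adjusted p = 0.195 and 0.0994), as was that of Ndufa4l2 in GFP+ cells (0.0771). In GFP+ cells the Cox4i2 call was also lost without replicate 1, 3 or 4 of vertebral GFP+ EMB-. The same held without replicate 1, 2 or 3 of long bone EMB- (limma adjusted p from 0.0584 to 0.182 over these fits). It was lost too with no filter (0.0755) and without the libraries whose labels conflict (0.0577). In GFP- cells the Cox4i2 call was lost without replicate 1 or 2 of long bone EMB- (0.0551 and 0.0671). Without replicate 4 of long bone EMB-, 62 and 72 members were lower (42.7% and 42.2% of all genes), and Cox4i2 was higher by 1.11 ± 0.16 and 1.27 ± 0.16. Cell cycle and erythroid RNA moved with this result: all 16 cell cycle and all 10 erythroid markers were lower in both vertebral EMB- groups, the cell cycle list summing to 61.6 ± 3.22 and 328 ± 55.0 FPKM against 876 ± 418 in long bone. Their part in it was not tested.

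As deposited, other mitochondrial genes mostly went with the members, where 42.1% of all genes were called higher in GFP+ and 41.7% in GFP- cells. Median-ratio scaling cut the higher calls of the members in GFP+ cells from 54 to 4. Counts for the lists below under the other scalings are not given here. Of 16 citric acid cycle enzymes and pyruvate dehydrogenase subunits, 15 were higher in EMB+ cells of vertebral GFP+ and 14 of GFP- origin, and 0 lower, among them Cs (citrate synthase, 0.77 and 0.60). Of 77 mitochondrial ribosomal protein genes, 52 and 66 were higher and 0 lower, and of 44 assembly factors 22 and 30 were higher and 0 lower. In long bone the counts were 2 higher and 1 lower, 8 and 4, and 5 and 2, where 17.5% and 16% of all genes were called. Their medians in vertebral GFP+ cells (0.56, 0.48 and 0.35) stood beside 0.51 for the members and 0.32 for all genes, so the assembly factors were close to the background.

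Among carriers and partners outside the rule, Cycs (cytochrome c) differed by 1.09 and 1.04 and Slc25a5 (the ADP/ATP carrier of dividing cells) by 1.201 and 1.5002 in vertebral GFP+ and GFP- cells. Slc25a5 was also higher in long bone EMB+ cells (0.88, limma adjusted p = 1.63e-05). The sum of the list of 11 such genes, Slc25a5 included, went the other way there. It was 1113 ± 49.1 FPKM in EMB+ and 1586 ± 441 in EMB- cells of long bone. The groups overlapped, at 1061 to 1176 in EMB+ libraries and at 1445, 1691, 1078 and, in replicate 4, 2129 in EMB- libraries. The list summed to 889 ± 64.8 against 684 ± 43.6 in vertebral GFP+ and 984 ± 80.7 against 852 ± 52.9 in GFP- cells. Higd1a, a hypoxia-induced protein bound to complex IV, was lower, at 62.2 ± 9.40 against 123 ± 14.7 FPKM in GFP+ and 66.9 ± 9.88 against 158 ± 9.48 in GFP- cells (-0.98 and -1.24). Glycolysis genes did not share the direction of the members. Of 18, 5 were higher and 5 lower in EMB+ cells of vertebral GFP+ origin, where 42.1% and 7.85% of all genes were called. In GFP- cells 1 was higher and 7 lower, where 41.7% and 10.6% of all genes were called. The list summed to 2623 ± 215 FPKM in EMB+ against 2658 ± 295 in EMB- cells in GFP+, and to 3079 ± 241 against 3460 ± 159 in GFP- cells. Among the lower genes, Pfkp, a phosphofructokinase isoform, averaged 24.5 ± 0.906 against 97.9 ± 8.75 FPKM in GFP- cells (-1.95, limma adjusted p = 7.62e-12). Slc2a1, the glucose transporter GLUT1, differed by -0.72 and -1.05.

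Of 11 tested regulators of mitochondrial gene expression, 6 were higher in EMB+ cells of vertebral GFP+ and 5 of GFP- origin and 0 lower, which is near the 42.1% and 41.7% of all genes called higher. Tfam, the mitochondrial transcription factor, differed by 0.22 (limma adjusted p = 0.194, not called) and 0.76 (adjusted p = 0.000104). Nrf1 differed by 0.34 and -0.07, neither of which passed the test, and was lower in EMB+ cells of long bone (-0.78, adjusted p = 0.00504). Subunits encoded by mitochondrial DNA were not analysed here.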

How the data were processed

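RNA from 24 sorted mouse cell libraries was made into cDNA with a full-length, unstranded kit and sequenced. The deposited FPKM values of protein-coding genes were made by the authors with bcl2fastq 2.19, STAR 2.5.2, Cufflinks 2.1.1 and the GRCm38 build, per the submitters' processing notes. Repeated rows and 3 genes with failed estimates were left out, which left 21948 genes; no member had a failed estimate.

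The test used log2(FPKM + 1) values and limma 3.58.1 (trend and robust options, R 4.3.3) in 1 fit of the 6 group means, with 18 residual degrees of freedom. Genes entered it with FPKM of at least 1 in 4 libraries. P-values are two-sided and Benjamini-Hochberg adjusted over all 11767 genes for each of the comparisons, with a threshold of 0.05. Differences are on the log2(FPKM + 1) scale, with SE, and understate changes of low genes; levels are mean FPKM ± SD over 4 libraries. In a test on simulated data for the vertebral GFP+ EMB comparison over 11767 genes, the fit recovered 86 of the 100 genes given a 2-fold change and 100 of the 100 given a 4-fold change, and 4.12% of the calls were unchanged genes. The simulation changed 200 genes in random directions, with independent noise and no shift of all genes. It thus does not describe the real comparison, where all genes leaned higher and the calls depended on the scaling.

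The members and lists were chosen with earlier results of these data known. Named members were isoforms with their common partners, core subunits, the 2 most abundant genes of each complex and the 2 strongest calls in each direction of each test. Alternatives were other pseudocounts, filters, scalings, fits and left-out libraries. Replicate numbers come from the titles, except in long bone EMB+, where accession order was used. Same-numbered libraries deviated together in GFP+ and GFP- vertebral cells (r from 0.169 to 0.337 in EMB+ and from 0.13 to 0.292 in EMB-) and in EMB+ and EMB- vertebral GFP- cells (0.135 to 0.236). In vertebral GFP+ EMB+ and EMB- cells r ranged from 0.0971 to 0.279, which overlaps the range in GFP- cells. The main fit takes no account of this pairing. P-values measure only the spread between these libraries. Transcript lengths came from GENCODE M21 for 11714 genes.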

Additional observations from a re-analysis of the deposited data

Results flagged for a closer look

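In 14 of the 198 groups of 4 libraries examined, 1 library lay far from the other 3, and chance alone flags about 1 group in 20. Replicate 4 of long bone EMB- was the highest for the share of complex I (1.35% of summed FPKM, against 0.745% to 0.831%), Atp5g3 (426 FPKM), Cox4i2 (227 FPKM), Cox8b (7.37 FPKM) and Uqcr11 (472 FPKM). Replicate 2 of vertebral GFP- EMB+ was the lowest for the share of complex I (0.749%) and of complex IV (0.421%), Cox6a1 (441 FPKM, against 547 to 558) and Ndufs8 (38.6 FPKM, against 48.3 to 49.6). Uqcrc2 was lowest in replicate 3 of long bone EMB- (31.6 FPKM) and Uqcrfs1 in replicate 1 of vertebral GFP+ EMB- (28.6 FPKM). Cox8c, a gene near the detection limit, was highest in replicate 4 of vertebral GFP+ EMB+ (0.146 FPKM), replicate 2 of vertebral GFP- EMB+ (0.158 FPKM) and replicate 3 of long bone EMB+ (2.13 FPKM).

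The EMB difference itself differed between groups of cells, by limma's test of the difference, for these named members. Between vertebral GFP+ and GFP- cells it differed by 1.17 for Cox6b2 and by -1.11 for Cox7a1. Between vertebral GFP- and long bone cells it differed by 1.99 for Cox8b, 1.24 for Ndufa4, 1.24 for Ndufb7, 1.13 for Ndufv1 and -1.46 for Ndufa4l2.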

How the results depend on the processing

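Counts of members called depended on the scaling, the groups in the fit, the block and replicate 4 of long bone EMB-, and the cause was not tested. The counts in this section are of members alone. Without the share of all genes under the same setting, they show only how the calls change with the setting. Under median-ratio scaling the EMB comparison called 7 members in vertebral GFP+ and 34 in GFP- cells, vertebral GFP+ against long bone EMB- called 47, and the difference between vertebral GFP- and long bone called 16. Quantile normalization gave 24 and 40 in the vertebral EMB comparisons, 19 in long bone (with more higher than lower calls, a reversed balance), 2 for GFP in EMB- cells, 7 and 5 for vertebral GFP+ and GFP- against long bone EMB+, 42 and 47 for the same against long bone EMB-, and 20 for the difference between vertebral GFP- and long bone. With only the groups compared in the fit, the counts were 3 in long bone, 2 for GFP in EMB- cells, 30 and 48 for vertebral GFP+ against long bone in EMB+ and EMB- cells, and 32 for the difference between vertebral GFP- and long bone. The FPKM minimum of 5, which removes the low isoforms, gave 0 for GFP in EMB+ cells and 0 for vertebral GFP- against long bone EMB+. The difference between vertebral GFP+ and GFP- cells fell to 1 with a pseudocount of 5, no filter, the FPKM minimum of 5 or median-ratio scaling.

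With the replicate block, GFP called 20 members in EMB+ and 9 in EMB- cells (the latter with a reversed balance), the difference between vertebral GFP+ and GFP- cells 22, and long bone EMB 4 by neighbouring title codes. The block gave 75 in vertebral GFP+ and 78 in vertebral GFP- EMB comparisons, for which the shares of all genes under the block are not given here. Leaving out 1 library at a time gave 43 to 60 and 70 to 74 in the vertebral EMB comparisons and 6 to 37 in long bone, where 37 and a reversed balance came without replicate 4 of EMB-. It gave 1 to 1 for GFP in both EMB states, 2 to 5 and 64 to 75 for vertebral GFP+ against long bone in EMB+ and EMB- cells, and 74 to 79 for vertebral GFP- in EMB- cells. For vertebral GFP- EMB+ it gave 1 to 4, with a reversed balance at 1 without replicate 4 of vertebral GFP- EMB+. The differences of differences gave 1 to 2 and 40 to 71. Over all other values of single named members under these alternatives, 1374 kept direction and side of the threshold, 94 lost the call and 32 moved.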
